A study of Homo sapiens with 8 samples.

Results

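The HOX genes encode homeodomain transcription factors that lie side by side in 4 clusters, and 38 of them, of 60659 genes in the count table, were chosen by symbol and described by cluster and paralog number. They were read in 8 libraries of ribosomal RNA-depleted total RNA from SK-N-SH, a human neuroblastoma cell line, in 4 groups of 2 biological replicates. Every group had received 10 µM all-trans retinoic acid (ATRA), which drives neuronal differentiation, for 24 h. The overexpression experiment set cells carrying a doxycycline-inducible FLAG-tagged ZMYND8 (ZMYND8 OE) against Parental cells, both given doxycycline, so that lentiviral transduction and G418 selection differ along with ZMYND8. The knockdown experiment set cells depleted of ZMYND8 (ZMYND8 KD) against KD control cells, with no doxycycline named for either. ZMYND8 is a reader of modified histones, and the series asked how its level alters the response of neuroblastoma cells to ATRA.

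Within a cluster, HOX genes are numbered from the 3′ end, and genes with the same number in different clusters are paralogs. Low numbers pattern the hindbrain and neck of the embryo, middle numbers the trunk and high numbers the lumbosacral region, limbs and tail. Retinoic acid is a classical inducer of HOX genes, and the 3′ genes respond to it first, partly through response elements for its receptors in and around the clusters. Trithorax proteins keep active HOX genes on, Polycomb proteins keep silent ones off, and PBX, MEIS and PKNOX proteins bind DNA together with HOX proteins.

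On the GRCh38 assembly with GENCODE annotation, the 10 HOXA genes spanned chr7:27100354-27200091 and the 10 HOXB genes spanned chr17:48528526-48728750. The 9 HOXC genes spanned chr12:53938831-54056030 and the 9 HOXD genes spanned chr2:176092721-176190907. HOXA and HOXB genes lie on the minus strand, HOXC and HOXD genes on the plus strand.

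The promoters of 3 HOXD genes are shown because this cluster rose together with overexpression. HOXD8 is the highest HOX gene, HOXD3 belongs to the anterior paralogs and HOXD10 to the posterior ones. Each run is the 250 bases before the RefSeq start on GRCh38.p14, plus strand, 5′ to 3′, in lower case, with each CACGTG in capitals. CACGTG is the E-box read by MYC-family proteins. The windows are chr2:176157057-176157306 for HOXD3, chr2:176129455-176129704 for HOXD8 and chr2:176116528-176116777 for HOXD10.
HOXD3: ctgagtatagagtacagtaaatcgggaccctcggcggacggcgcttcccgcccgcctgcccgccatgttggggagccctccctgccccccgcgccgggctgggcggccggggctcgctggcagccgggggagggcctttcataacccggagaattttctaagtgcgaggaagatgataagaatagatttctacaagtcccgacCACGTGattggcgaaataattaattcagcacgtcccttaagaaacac
HOXD8: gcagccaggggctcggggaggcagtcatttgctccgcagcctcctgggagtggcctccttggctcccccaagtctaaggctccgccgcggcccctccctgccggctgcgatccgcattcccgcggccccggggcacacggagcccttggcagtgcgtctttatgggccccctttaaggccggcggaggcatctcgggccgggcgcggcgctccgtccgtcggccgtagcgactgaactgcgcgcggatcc
HOXD10: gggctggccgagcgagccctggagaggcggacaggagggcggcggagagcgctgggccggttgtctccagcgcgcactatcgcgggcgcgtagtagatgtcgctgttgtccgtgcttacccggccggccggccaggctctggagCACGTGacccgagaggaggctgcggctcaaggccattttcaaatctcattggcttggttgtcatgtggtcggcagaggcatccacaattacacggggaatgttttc

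HOXD3 and HOXD10 hold 1 match each and HOXD8 none, and HOXD8 rose as the others did. RefSeq gave 27 such windows for 20 of the 38 HOX genes. CACGTG, searched on both strands, lay in 8 of them (29.6%), 5 of these among the 8 HOXD windows, against 6.34% of 35116 windows of all genes. CCAAT, the letters read by NF-Y, lay in 18 of 27 (66.7%) against 32% of all windows. AGGTCA, the half-site of retinoic acid receptors, lay in 0 of 27 against 12.1% of all. The HOX windows were richer in CpG than most, with a median of 19 CG pairs against 11. The letters were chosen with the expression results known, and no binding was measured.

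Library totals ran from 38316523 to 56256979 counts, the lowest in a ZMYND8 OE library. The Parental libraries stood apart in counts over olfactory receptor genes at 22.2 and 25.2 CPM (counts scaled to library total) against 3.23 to 5.9 CPM in the other 6. The ZMYND8 OE libraries counted the most genes, 31818 and 30905 against 27951 and 28481 in Parental. The part of either in the HOX values was not tested. ZMYND8 itself followed the labels, at 9.54 and 9.17 RPKM (reads per kilobase of exon, scaled to library size by TMM) in Parental, 538 and 545 in ZMYND8 OE, 7.81 and 8 in KD control and 4.11 and 4.13 in ZMYND8 KD. In the knockdown ZMYND8 thus fell by 0.94 on the log2 scale (SE 0.0556), whereas overexpression raised it by 5.87 (SE 0.0596). Differences below are log2 fold changes from the edgeR quasi-likelihood test with Benjamini-Hochberg adjustment over all genes tested. A gene changed when its adjusted p was below 0.05. It passed all thresholds when its change also reached 1 on the log2 scale with a mean normalized count above 20.

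HOXD8 was the highest HOX gene in every group. Of the 38 genes, 9 reached 1 RPKM in both Parental libraries, 10 in both ZMYND8 OE libraries and 11 in both libraries of KD control and of ZMYND8 KD. All of those in Parental, KD control and ZMYND8 KD lay in HOXB, HOXC and HOXD, and HOXA5 reached that level in ZMYND8 OE. Of the genes numbered 10 and above in all 4 clusters, none reached 1 RPKM in any library. In each group HOXD8, HOXD9 and HOXC6 stood above every gene numbered 10 or higher.

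**Figure D1:**
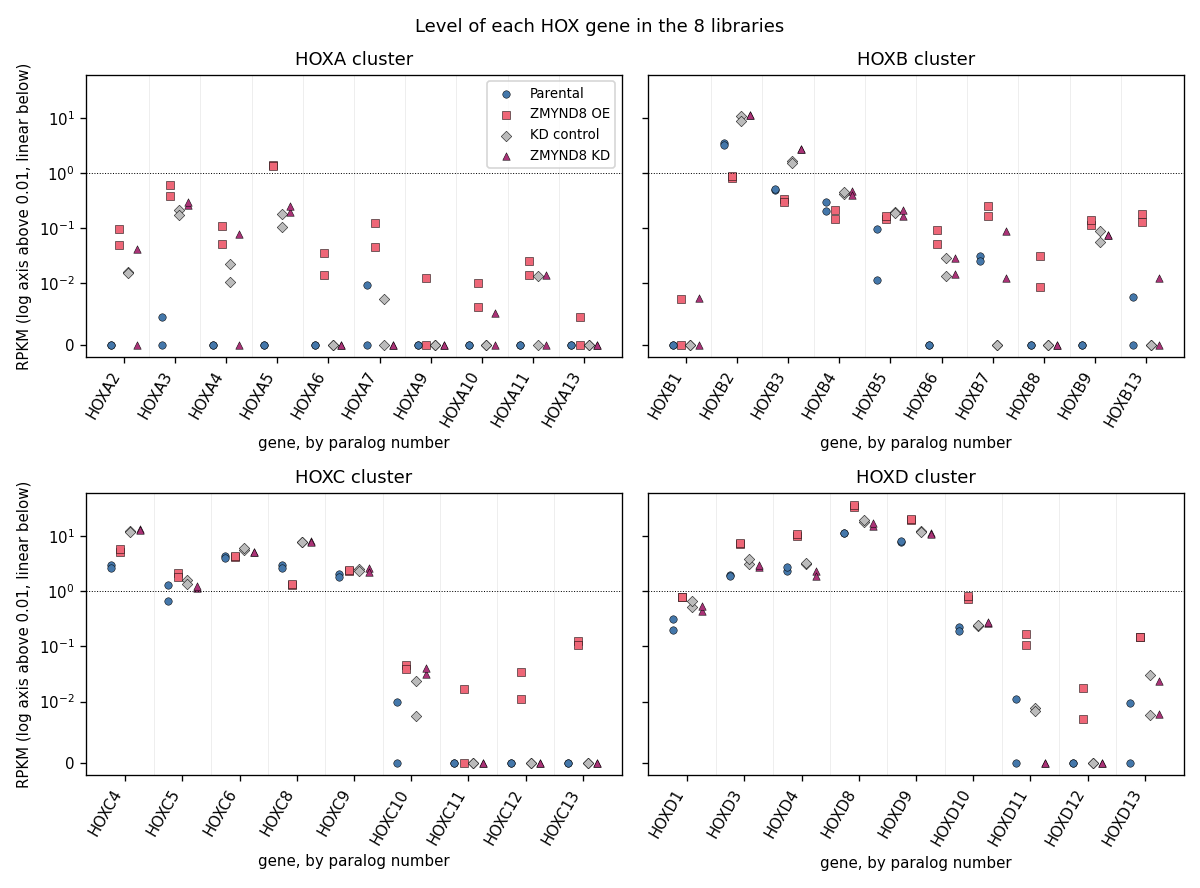
RPKM of each HOX gene in each library (1 point per library, 2 per group) by cluster and paralog number. The axis is logarithmic above 0.01 and linear below, and the dotted line marks 1 RPKM. HOXD8 stands highest and the 5′ genes of every cluster lie below the line.

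With ZMYND8 overexpressed, the HOXD cluster rose, the 3′ end of HOXB fell, HOXC changed in both directions, and HOXA and several 5′ genes near 0 in Parental became countable. Of the 38 genes, 23 passed the filter on low counts. Of these, 16 rose and 3 fell by adjusted p, against 31.7% and 29.1% of the 20835 genes tested, and 9 rose and 2 fell past all thresholds, against 11.7% and 6.84%. The median change of the 23 was 1.66, beside 0.03 for all genes. In 8 of the 23 (HOXA3, HOXA5, HOXB7, HOXB9, HOXB13, HOXC13, HOXD11 and HOXD13) both Parental libraries were under 10 counts. These passed the filter only through ZMYND8 OE and had to differ, so the 16, the 9 and the median cannot stand as support. Of the 15 tested genes left without them, 8 rose and 3 fell. HOXB5, at 1 and 10 counts in Parental, is among the 15 and was also tested only through ZMYND8 OE. It did not pass.

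In the HOXD cluster, HOXD8 read 1272 and 1513 counts in Parental and 4823 and 4237 in ZMYND8 OE. That was 11.4 and 11.1 RPKM against 34.1 and 36.6, a change of 1.66 (SE 0.0561, edgeR adjusted p = 2e-09), and the groups were far apart. HOXD9, a trunk and limb gene next to it, rose from 7.93 and 8.06 RPKM to 19.7 and 20.7, a change of 1.34. HOXD4, a gene of the hindbrain and cervical region, rose from 2.34 and 2.71 RPKM to 10.1 and 10.9, and its change of 2.06 (SE 0.124) was the greatest of the HOXD genes with a mean count above 20. HOXD3, which acts in the same region, rose from 1.94 and 1.91 RPKM to 7.09 and 7.33, a change of 1.91 (SE 0.0811). At lower level, HOXD1 rose from 16 and 31 counts to 80 and 66 (change 1.60, SE 0.28), and HOXD10 from 24 and 24 counts to 98 and 89 (change 1.91, SE 0.246). No ZMYND8 OE library overlapped a Parental one in any of these 6 genes. HOXD11 and HOXD13, genes of the limb and tail, went from 1 and 0 counts in Parental to 19 and 10 and to 19 and 16. Their ratios were 28.1 (95% exact counting interval 4.66 to 1150) and 33.9 (5.7 to 1380). HOXD12 had 0 and 0 counts against 1 and 2.

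The HOXB cluster moved differently along its length. HOXB2, a gene of hindbrain patterning, read 342 and 395 counts in Parental and 102 and 90 in ZMYND8 OE, or 3.45 and 3.27 RPKM against 0.812 and 0.875. It fell by 1.98 on the log2 scale (SE 0.137, edgeR adjusted p = 4.81e-07), the steepest fall among the HOX genes tested. HOXB3, its neighbour, read 157 and 194 counts in Parental and 135 and 98 in ZMYND8 OE and fell by 0.64 (SE 0.159, edgeR adjusted p = 0.00523). HOXB4 read 25 and 21 counts against 23 and 13 (change -0.41, SE 0.37) and HOXB5 read 1 and 10 against 16 and 15 (change 1.45, SE 0.639), neither past the test. Toward the 5′ end, HOXB7 went from 2 and 2 counts to 21 and 11, HOXB13 from 1 and 0 to 29 and 17, and HOXB9 from 0 and 0 to 16 and 16, at least 5.17-fold higher against a floor of 3 counts per library. HOXB6 went from 0 and 0 to 13 and 6. HOXB1 and HOXB8 had 0 counts in Parental and at most 4 in a ZMYND8 OE library. The 2 highest genes of the cluster therefore fell while 5′ genes that were near 0 gained counts, and the summed level followed the highest.

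In the HOXC cluster, HOXC4 and HOXC5 rose and HOXC8 fell. HOXC4 rose from 349 and 374 counts in Parental to 756 and 702 (change 0.97, SE 0.107), or from 2.97 and 2.62 to 5.08 and 5.76 RPKM. HOXC5 rose from 98 and 62 counts to 206 and 146 (change 1.06, SE 0.261), with no library overlapping. Its change was 0.64 without Parental replicate 2 and 0.95 without ZMYND8 OE replicate 1, both short of the fold threshold. HOXC8, a thoracic gene, fell by 1.04 (SE 0.134, edgeR adjusted p = 6e-05) from 302 and 326 counts to 170 and 145. Its change was -0.98 without Parental replicate 1, short of the fold threshold, and the count of genes that fell past all thresholds was then 1. HOXC6, the highest gene of the cluster in Parental at 4.29 and 3.93 RPKM, read 4.16 and 4.38 in ZMYND8 OE (change 0.06, SE 0.0855, edgeR adjusted p = 0.545). HOXC9 read 143 and 157 counts against 205 and 176 (change 0.30, SE 0.147) and did not pass. HOXC13 went from 0 and 0 counts to 16 and 11, at least 4.28-fold higher, and HOXC10 from 1 and 0 to 6 and 4. HOXC11 and HOXC12 had 0 counts in Parental and at most 5 in a ZMYND8 OE library. HOXC4, HOXC5 and HOXC6 share exons with each other or with unnamed genes on the same strand (17.5%, 59.9% and 16.1% of their exon bases), so reads may be split among them.

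The HOXA cluster was almost unread in Parental. HOXA5, a gene of the cervical and upper thoracic region, had 0 and 0 counts in Parental and 130 and 103 in ZMYND8 OE, at least 37.2-fold higher. HOXA3, which acts in the neck and pharyngeal arches, had 0 and 1 counts against 138 and 73, a ratio of 204 (36.3 to 8110). HOXA2 went from 0 and 0 to 12 and 5 counts, HOXA4 from 0 and 0 to 10 and 4, and HOXA7 from 1 and 0 to 6 and 13. HOXA6, HOXA9, HOXA10, HOXA11 and HOXA13 had 0 counts in Parental and at most 3 in a ZMYND8 OE library. The gain lay in the 3′ and middle genes, and HOXA5 alone reached 1 RPKM. Of the 16 HOX genes that both Parental libraries left at 0, 12 (75%) were counted in both ZMYND8 OE libraries. The same held for 23% of protein-coding genes and 7.53% of all genes at 0 in Parental. Of the same 16, 5 (31.2%) were counted in both KD control libraries, against 7.49% of protein-coding and 4.74% of all genes. Among these 5, HOXA5 read 16 and 10 counts in KD control and HOXB9 read 12 and 8.

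**Figure D2:**
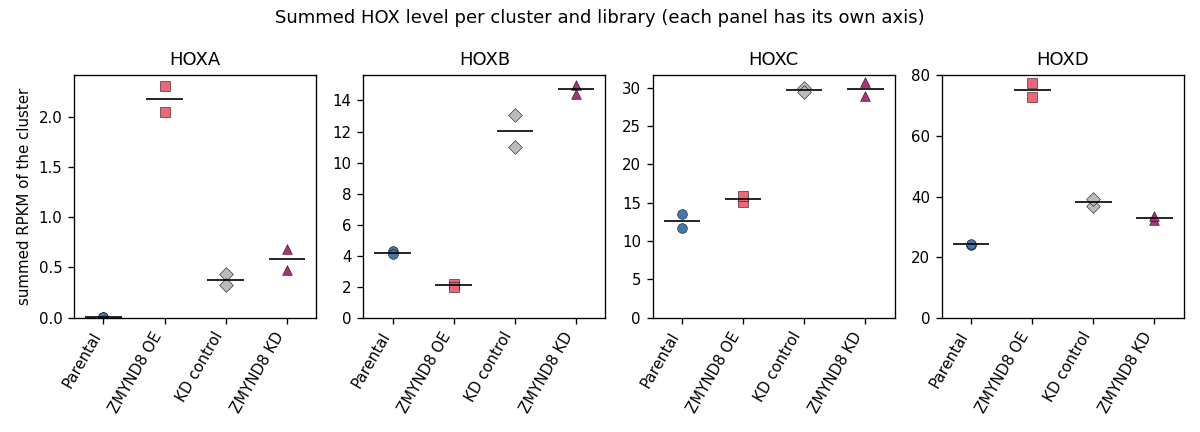
Summed RPKM of the genes of each HOX cluster in each library (points) with the mean of each group (bars), each panel on its own axis from 0. HOXD and HOXA are highest in ZMYND8 OE, HOXB is lowest there, and HOXC is highest in KD control and ZMYND8 KD.

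Summed over the 9 HOXD genes, the level was 24.0 and 24.3 RPKM in Parental and 72.8 and 77.5 in ZMYND8 OE. The HOXB sum was 4.29 and 4.10 against 2.19 and 1.98, the HOXC sum 13.5 and 11.6 against 15.2 and 15.9, and the HOXA sum 0.00976 and 0.00449 against 2.30 and 2.04. HOXD thus made up 59.1% of the summed HOX level in Parental and 79.1% in ZMYND8 OE, HOXC 30.7% and 16.4%, and HOXB 10.2% and 2.2%. The RNA gained by the family was mainly that of HOXD8, HOXD9, HOXD4 and HOXD3.

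With ZMYND8 depleted, few HOX genes changed. Of 18 tested, 1 rose and 1 fell by adjusted p, against 13.4% and 10.8% of the 19789 genes tested. None passed all thresholds in edgeR or DESeq2, against 1.36% of genes higher and 0.596% lower in edgeR. At an unadjusted edgeR p below 0.05, 3 were higher (HOXB3, HOXA3 and HOXB2) and 3 lower (HOXD4, HOXD8 and HOXD3). HOXB3 read 653 and 633 counts in KD control and 1068 and 1042 in ZMYND8 KD, or 1.67 and 1.53 against 2.74 and 2.68 RPKM. It rose by 0.76 (SE 0.0828, edgeR adjusted p = 0.000106), with the groups well apart. HOXD4 read 184 and 200 counts against 137 and 111 and fell by 0.58 (SE 0.165, edgeR adjusted p = 0.0273). Its call was lost without KD control replicate 1 (edgeR adjusted p = 0.0787), without KD control replicate 2 (0.13), without ZMYND8 KD replicate 2 (0.136), with no filter on low counts (0.0842) and in DESeq2 (0.0723). HOXD8 read 17.7 and 19.7 RPKM against 15.3 and 17 (change -0.21, SE 0.0729, edgeR adjusted p = 0.0613) and HOXD3 3.15 and 3.84 against 2.74 and 2.93 (change -0.30, SE 0.112, edgeR adjusted p = 0.0783). HOXB2 read 10.7 and 8.77 RPKM against 11.4 and 11 (change 0.21, SE 0.09), HOXC8 7.69 and 7.81 against 8.24 and 7.67 (change 0.04, SE 0.0775) and HOXC4 12.5 and 12 against 13.6 and 12.6 (change 0.10, SE 0.0653). HOXA5 had 16 and 10 counts against 18 and 23, and HOXA3 49 and 42 against 59 and 68, neither past the test. The knockdown was partial, as the ZMYND8 values show, and a change that missed the test here is not shown to be absent.

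**Figure D3:**
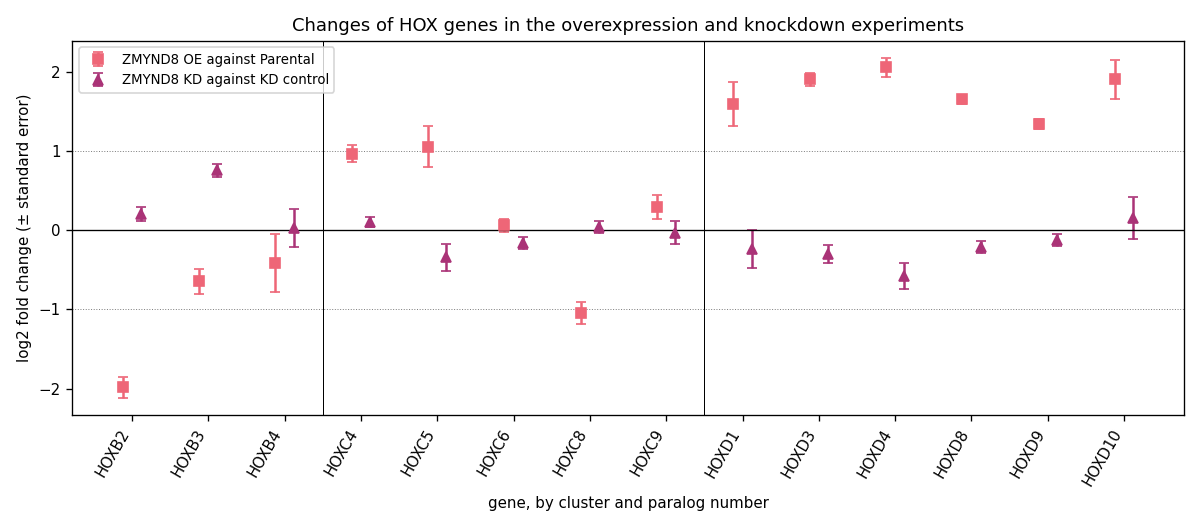
Log2 fold change with its standard error for the 14 HOX genes with a mean normalized count above 20 in the overexpression comparison, HOXA3 and HOXA5 left out because Parental was at or near 0. Squares are ZMYND8 OE against Parental and triangles ZMYND8 KD against KD control. All 6 HOXD genes lie above 1 in the overexpression, and HOXB2, HOXB3 and HOXC8 lie below 0, as does HOXB4, which did not pass the test.

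The difference between the 2 effects was tested over all 8 libraries. It passed for 16 of 23 HOX genes, 13 with the greater value in the overexpression and 3 with the lower, against 24.6% and 24.4% of 22619 genes. Of the 13, 5 (HOXA3, HOXA5, HOXB9, HOXD11 and HOXD13) had under 10 counts in both Parental libraries, and these had to differ in the overexpression. HOXD4, which rose with overexpression and fell with knockdown, differed by 2.64 (SE 0.204, edgeR adjusted p = 5.17e-08). HOXB3, which fell with overexpression and rose with knockdown, differed by -1.41 (SE 0.156, edgeR adjusted p = 2.62e-06). HOXB2 differed by -2.20 (SE 0.16) and HOXC8 by -1.09 (SE 0.141), with the knockdown effect of neither past its own test. HOXD8, HOXD3, HOXD9, HOXD10 and HOXD1 differed by 1.86, 2.21, 1.46, 1.75 and 1.83. For HOXC6 (0.22, SE 0.115) and HOXC9 (0.32, SE 0.212) the difference did not pass.

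**Figure D4:**
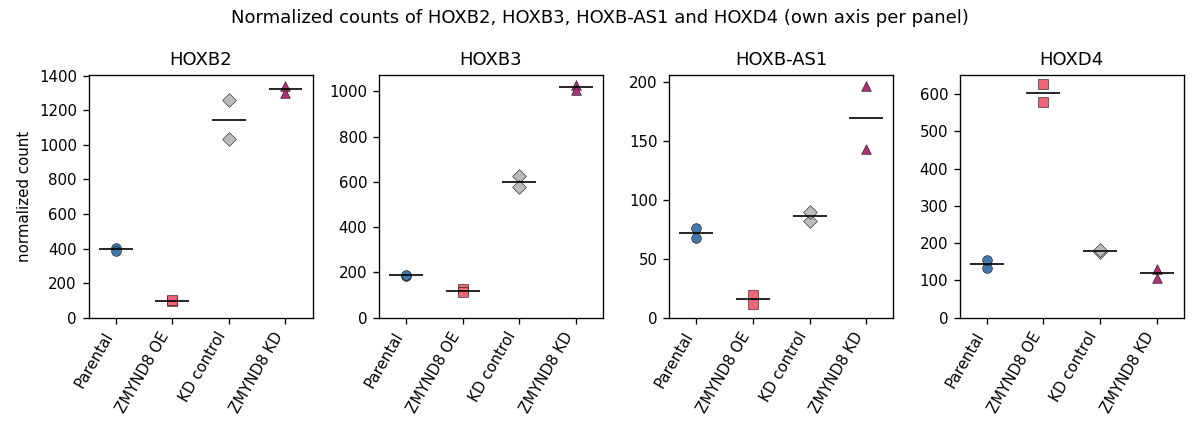
Normalized counts of HOXB2, HOXB3, the antisense RNA HOXB-AS1 and HOXD4 in each library (points) with the mean of each group (bars), each panel on its own axis from 0. HOXB3 and HOXB-AS1 are lower in ZMYND8 OE than in Parental and higher in ZMYND8 KD than in KD control, and HOXD4 shows the opposite order.

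The control groups of the 2 experiments differed as well. Of 16 HOX genes tested, 13 were higher in KD control than in Parental and 0 lower by the edgeR adjusted p, against 33.6% and 36.2% of genes. HOXA3, at 0 and 1 counts in Parental, is among them and passed the filter only through KD control. Without it 15 tested genes are left, 12 of them higher. HOXB5, at 1 and 10 counts in Parental and 21 and 21 in KD control, is among the 12. It too passed the filter only through KD control. Past all thresholds 6 were higher (HOXA3 included) and 0 lower, against 10.8% of genes in each direction. At an unadjusted edgeR p below 0.05, 14 were higher and 0 lower, and in DESeq2 5 were higher and 0 lower past all thresholds. HOXC4 was at 12.5 and 12 RPKM in KD control and 2.97 and 2.62 in Parental (change 2.15, SE 0.0832). HOXB3 (1.69), HOXB2 (1.54), HOXC8 (1.49) and HOXD1 (1.17) were also higher, and HOXA3 had 49 and 42 counts against 0 and 1. HOXD8 was higher by 0.74, HOXD4 by 0.32 without passing. Knockdown vector, doxycycline and experiment cannot be told apart here. This comparison and that of ZMYND8 OE share the Parental libraries, and each gene's own values are given side by side for that reason. HOXB2 and HOXC8 were above Parental in KD control and below it in ZMYND8 OE, whereas HOXD8 was above Parental in both.

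Among 24 non-coding RNAs of the clusters, 7 were tested in the overexpression. Of these, 6 rose and 1 fell, beside 31.7% and 29.1% of all genes tested. Of those that rose, HOTAIR, HOTAIRM1 and HOXA-AS2 had at most 3 counts in a Parental library and were tested only through ZMYND8 OE. HAGLR, antisense in HOXD, rose from 428 and 525 counts to 1194 and 1040 (change 1.19, SE 0.0797), and HOXA-AS2 from 1 and 3 to 75 and 50. HOXB-AS1, antisense at HOXB2 and HOXB3, fell from 57 and 78 counts to 21 and 10 (change -2.16, SE 0.308). In the knockdown HOXB-AS1 rose from 86 and 99 counts to 205 and 148 (change 0.98, SE 0.197, edgeR adjusted p = 0.00463). HOXB2 and HOXB3 overlap HOXB-AS1 on the other strand over 3.72% and, together with HOXB-AS3, 5.27% of their exon bases, and the strand setting of the counting was not stated. HAGLR overlaps HOXD1, where antisense RNAs cover 60.1% of exon bases, so part of the HOXD1 counts may be shared with it. Genes on the other strand also cover 24.4% of the exon bases of HOXD8, 14.6% of HOXD3 and 17.25% of HOXA3. HOXD10 and HOXD11 overlap each other on the same strand over 18.2% and 21.4% of their exon bases. Part of the counts of these genes may be shared likewise. HOTAIR, in HOXC, had 0 counts in all 6 other libraries and 20 and 21 in ZMYND8 OE. MIR10B, inside HOXD3, rose from 9 and 2 counts to 25 and 27 (change 2.17, SE 0.564), as counts over its precursor that do not measure the mature miRNA. MIR10B too was tested only through ZMYND8 OE, and KD control read 28 and 26 counts. The mature 3′ arm of MIR10B is shown because the gene lies within HOXD. It is written from RefSeq (chr2:176150368-176150389, plus strand) with the seed, bases 2 to 8, in capitals.
hsa-miR-10b-3p: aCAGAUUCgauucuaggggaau

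Of 9 PBX, MEIS and PKNOX cofactors, all tested in the overexpression, 6 rose and 2 fell, beside the 31.7% and 29.1% of all genes given above. PKNOX2, at 1 and 0 counts in Parental and 16 and 14 in ZMYND8 OE, is among those that rose and was tested only through ZMYND8 OE. PBX4 rose by 1.05 (SE 0.219) and passed all thresholds. In the knockdown 1 of 8 tested rose and 3 fell, none of them past all thresholds in edgeR. Of 12 Polycomb genes tested in the overexpression 4 rose and 3 fell, near the share of all genes. JARID2, a subunit that guides PRC2, rose by 1.34, and it was also 2.42-fold higher in KD control than in Parental. PCGF2, a PRC1 subunit, read 993 and 990 counts in Parental and 186 and 147 in ZMYND8 OE, but replicates of KD control (117 and 1335) and of ZMYND8 KD (1563 and 191) differed as widely, so its fall lies within the spread between replicates of other groups. Of 10 genes of MLL complexes 3 rose and 4 fell, none past all thresholds in edgeR. Of 8 retinoic acid targets 4 rose and 4 fell, CYP26A1, which degrades retinoic acid, by 4.90 upward and TGM2 by 2.61 downward. The 24 genes flanking the clusters had 8 rising and 9 falling of 21 tested, with a median change of 0.07.

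Markers of neuroblastoma cell state also changed in the overexpression. Of 10 adrenergic markers, 9 were tested in the overexpression and all 9 rose, with summed levels of 126 to 127 RPKM in Parental, 365 to 387 in ZMYND8 OE, 251 to 265 in KD control and 196 to 221 in ZMYND8 KD. Of 10 mesenchymal markers 9 fell and TWIST1 rose, with sums of 836 to 843 in Parental, 435 to 469 in ZMYND8 OE, 500 to 505 in KD control and 582 to 598 in ZMYND8 KD. Gene by gene, 5 of these 10 were higher and 5 lower in KD control than in Parental, with a median change of -0.04. Of 6 fibroblast and pericyte markers 5 fell, with sums of 203 to 216 in Parental and 82.9 to 87.8 in ZMYND8 OE, 119 in both KD control libraries and 120 to 121 in ZMYND8 KD. Of 4 epithelial markers 3 were tested and KRT8 and KRT18 fell. TH, of catecholamine synthesis, read at most 5 counts in any library. Of 6 Schwann and melanocyte markers 5 were tested, of which S100B rose by 3.14 and PMEL by 1.34. SOX10, a defining marker, was at 0 or 1 count in each library. In KD control S100B was 7.97-fold higher than in Parental, and PMEL was lower, at 0.568 of the Parental level. The part of these states in the HOX differences was not tested, and in bulk RNA more RNA per cell and more cells of a kind cannot be told apart.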

How the data were processed

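RNA-seq counts per gene were deposited for 8 libraries of ATRA-treated SK-N-SH cells. The authors trimmed reads with Trim_Galore!, removed reads under Phred 25, used HISAT2 for alignment (GRCh38) and featureCounts with GENCODE v28 for the counts. The strand setting is not given in the sources used here. From 60662 lines, 3 broken ones were left out. Ensembl IDs were matched to GENCODE v44 (60418 of 60659) for coordinates. Counts were tested in edgeR 4.0.16 (R 4.3.3; TMM, filterByExpr, quasi-likelihood), each comparison within its own 4 libraries, with Benjamini-Hochberg adjustment. DESeq2 1.42.0 and other settings were alternatives. Gene lengths of the deposited table gave RPKM. Scripts were tested on simulated data. Counting intervals (95%, exact) and the floor of 3 counts per library cover counting error only. Replicates differed by more than sampling noise (chi-square per degree of freedom 5.52 to 7.97). Values by library were given for HOX genes with an adjusted p below 0.05 and a mean count above 20 and for the highest gene of each cluster. Others were given for completeness. Genes and lists were chosen with earlier results of these data known. Same-numbered replicates were not paired. Some genes of the lists are not reported here.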

Additional observations from a re-analysis of the deposited data

How the results depend on the processing

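In the overexpression, 11 HOX genes passed all thresholds (9 higher, 2 lower), and the 13 changes run under each alternative, those of genes with a mean count above 20, kept direction and an adjusted p below 0.05. HOXA3 and HOXA5 are among the 9 and the 13, passed the filter only through ZMYND8 OE and had to differ. Without the genes under 10 counts in both Parental libraries, 7 were higher past all thresholds. HOXC5 (0.84) and HOXD9 (0.9995) were short of the fold threshold with length and GC trends taken out, HOXC5 also without Parental replicate 2 or ZMYND8 OE replicate 1. With a mean normalized count above 100 there were 7, 5 of them higher. The lower count was 1 with upper quartile normalization and 1 in thinned libraries, HOXC8 being near the fold threshold. Leaving out 1 library at a time gave 10 to 11 genes in all, 8 to 10 higher and 1 to 2 lower. The knockdown count was 0, and 2 (1 higher, 1 lower) with no fold threshold. KD control against Parental gave 6 genes, 4 to 7 with 1 library left out, 12 with no fold threshold, and 10 with length and GC trends taken out together with a replicate block. The effects differed in 16 genes, 15 to 18 with 1 library left out. HOXA3, among the 6 of KD control against Parental, passed the filter only through KD control, and 5 are left without it. Of the KD control changes, those of HOXB4, HOXC9 and HOXD1 lost their call under some settings. The causes were not tested. Same-numbered libraries shared only a number (correlations of their deviations -0.0415 to 0.0845), and the replicate block gave 11 genes in the overexpression. Upper quartile normalization moved the median change of all genes in the overexpression to 0.11 from 0.03. Without TMM the HOXD sum was 85.9 RPKM in ZMYND8 OE and 23 in Parental, and the HOXB sum 2.38 and 3.99. A left-out library leaves a lone sample that is assumed to vary like the other group. With 2 libraries a group and counts under 10, low HOX genes have wide intervals.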
